A study of Homo sapiens with 18 samples.

Results

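The genes described here are 35 that build the keratin filaments, desmosomes and cell junctions of epithelial cells, out of 26485 genes listed in each table of the series. They were picked by gene symbol, each symbol had to match a listed gene exactly, and all 35 were found. They comprised 6 keratins, 9 desmosome and plakin genes, 5 cadherins and catenins, 11 tight junction and polarity genes, and 4 genes for an epithelial surface protein, a surface protease and regulators of the epithelial programme. RNA was sequenced from PANC-1 cells, an established line derived from a human pancreatic ductal carcinoma, 72 h after treatment began. In the first sequencing run the cells had received control siRNA or either of 2 siRNAs against PKR, named PKR siRNA 1 and PKR siRNA 2, where an siRNA is a short RNA duplex that directs the cleavage of matching mRNAs and PKR is the stress-responsive kinase encoded by EIF2AK2. In the second run they had been treated with the solvent DMSO, or with 400 nM or 800 nM C16, a small molecule inhibitor of PKR dissolved in DMSO. Each of the 6 groups held 3 libraries, all from this single unmodified line, and the sources used here do not say whether the 3 came from separate cultures, so that p-values measure the spread between libraries, which may be technical. The study asked what PKR knockdown and PKR inhibition do to these cancer cells.

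Keratins are the intermediate filament proteins of epithelia. They assemble from pairs of a type I and a type II chain, and simple epithelia such as the pancreatic duct use KRT8 and KRT7 with KRT18 and KRT19. Desmosomes join these filaments to the neighbouring cell, with desmogleins and desmocollins spanning the membrane and plakoglobin, plakophilins and plakins on the inner side. Adherens junctions are built on cadherins and catenins and connect to actin, whereas tight junctions are sealed by claudins and occludin and held by scaffold proteins.

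Between 1512940 and 1873906 reads fell on genes per siRNA library, and between 894145 and 1474308 per C16 library, so genes with few reads were measured less precisely in the C16 libraries. The authors normalized the 2 runs in separate tables, so the run, the table and the type of treatment cannot be told apart, and every comparison below was made within a table. The log2 fold change of EIF2AK2, the targeted gene, was -3.04 for PKR siRNA 1, -3.35 for PKR siRNA 2 (limma adjusted p = 4.69e-18 and 2.58e-20), and -0.22 and 0.01 with 400 nM and 800 nM C16. Of 6 duct epithelial markers, 5 had a median of at least 10 normalized counts over the libraries of each table, and KRT7 had medians of 9.98 and 4.77. The mesenchymal marker VIM was also abundant, at 4633 to 5381 normalized counts across siRNA libraries and 1887 to 3081 across C16 libraries, whereas TWIST1 was at 0 in every library. Of the leukocyte and endothelial markers, PTPRC and CD3E were at 0 in all 18 libraries, PECAM1, VWF and CDH5 did not exceed 1.07, and CD14 and LYZ did not exceed 4.86. Of the 6 fibroblast markers, COL1A2 and DCN were at 0 throughout, whereas COL1A1 ranged from 21.8 to 161, COL3A1 from 1.11 to 30.5 and PDGFRB from 0 to 11.9.

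Normalized counts are reads per gene divided by a factor for each library. Divided further by gene length in kilobases, the keratins KRT8, KRT18 and KRT19 led the members in control siRNA libraries, at 1116 ± 16.7, 991 ± 3.21 and 825 ± 22.1 normalized counts per kb (SD, n = 3), with intervals of 1 SD that did not touch. CTNNA1, JUP and PPL followed at 173 ± 2.00, 159 ± 1.31 and 151 ± 10.1 per kb, and the last pair lay within 1 SD of each other. CLDN4 reached 134 ± 7.64 per kb, whereas CDH1, which encodes E-cadherin, stood at only 3.89 ± 0.706 per kb, beside CDH3 at 3.95 ± 0.320. In DMSO libraries KRT8 also led, at 1925 ± 69.3 per kb, ahead of KRT19 at 1075 ± 42.8 and KRT18 at 938 ± 33.4. The 6 keratins together took 0.317% ± 0.00134 of the reads on genes under control siRNA, 0.188% ± 0.00666 under PKR siRNA 1, then 0.571% ± 0.0185 under PKR siRNA 2. In the C16 table their share was 0.664% ± 0.0238 with DMSO, 0.564% ± 0.0183 with 400 nM and 0.501% ± 0.0229 with 800 nM. In bulk RNA, fewer cells expressing a gene and less RNA per cell cannot be told apart.

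Members whose mean over the 9 libraries of a table reached 10 normalized counts were tested, which left 28 of the 35 in the siRNA table, and 26 among the C16 libraries. Of those, CDH3, DSC2 and KRT7 among siRNA libraries, and CDH3 and MARVELD2 among C16 libraries, had a mean under 10 in at least 1 group. The test was limma on log2 (normalized count + 1), a scale that understates the change of low genes, with Benjamini-Hochberg adjustment over all genes tested, and a gene was called when its adjusted p was under 0.05 and its fold change over 1.5. With PKR siRNA 1, 15 members fell and 1 rose, where 12.6% of all tested genes were called down and 8.53% up. The median log2 fold change of the tested members was -0.62 beside -0.01 for all genes, and in 18 of the 28 every PKR siRNA 1 library lay below every control library, as it did in 27.2% of all genes. With PKR siRNA 2, 7 members fell and 4 rose, where 12.8% of all genes were called down and 10.8% up, and the median of the members was 0.05.

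The direct comparison of the 2 PKR siRNAs separated them. Relative to PKR siRNA 1, 12 members were higher with PKR siRNA 2 and 3 were lower, where 16.4% of all genes were called higher and 15.3% lower. The 12 were KRT8, KRT18, KRT19, JUP, DSP, DSC2, PPL, CDH1, CTNND1, OCLN, CLDN1 and CLDN7, and the 3 were KRT7, KRT80 and PKP3. With 400 nM C16, 3 members rose and 3 fell, where 7.08% of all genes were called up and 5.45% down. With 800 nM C16, 3 rose and 6 fell, where 11.6% were called up and 14.1% down, and the share of members that rose was thus close to that of all genes.

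**Figure D1:**
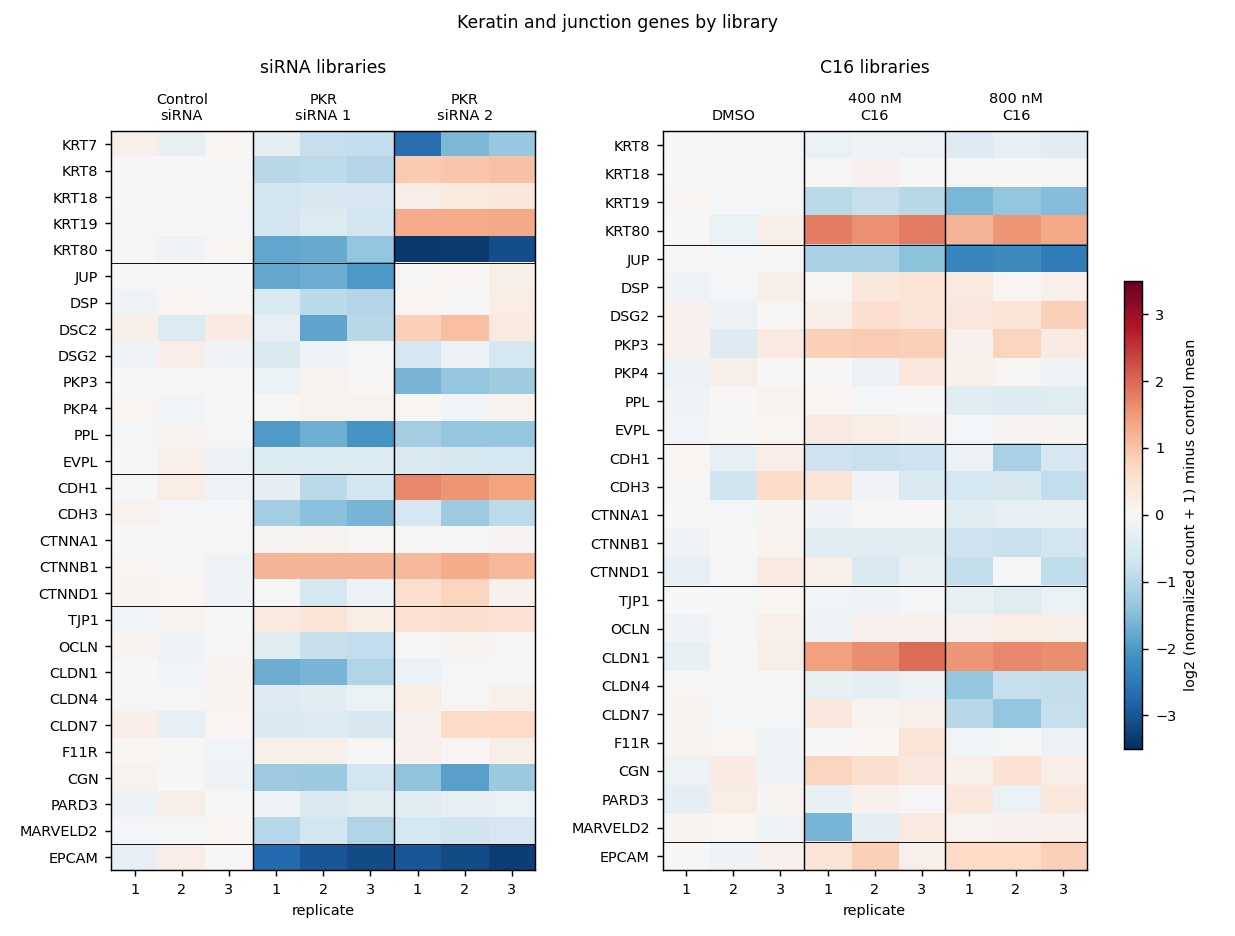
Change of each tested member in each library, as log2 (normalized count + 1) minus the mean of the control siRNA libraries (left) or the DMSO libraries (right); columns are libraries by replicate number, rows are members grouped by role, blue is lower and red is higher. JUP, PPL, CLDN1 and EPCAM are blue in the 3 PKR siRNA 1 libraries, KRT8 and KRT19 turn from blue with PKR siRNA 1 to red with PKR siRNA 2, and CLDN1 and KRT80 are red in all 6 C16 libraries.

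Among the keratins, 4 of the 5 tested fell with PKR siRNA 1, where 12.6% of all genes were called down. With PKR siRNA 2, 2 rose and 2 fell, where 10.8% of all genes were called up and 12.8% down. KRT8 encodes the main type II keratin of simple epithelia and lies at chr12:52897187-52949866, minus strand in hg38. Normalized counts of KRT8 came to 2504, 2571 and 2507 under control siRNA, 1288, 1347 and 1246 under PKR siRNA 1, then 4729.6, 4941 and 5105 under PKR siRNA 2. The 3 groups did not overlap, and the 2 PKR siRNAs moved the gene to opposite sides of the control. The log2 fold change was -0.97 (SE 0.04, limma adjusted p = 5.08e-33) with PKR siRNA 1 and 0.96 (SE 0.04, limma adjusted p = 3.25e-33) with PKR siRNA 2. Between the PKR siRNAs the difference was 1.93 (SE 0.04, limma adjusted p = 2.38e-53).

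KRT19, the smallest type I keratin and a marker of pancreatic ducts (chr17:41523617-41528389, minus strand), showed a similar order. KRT19 had normalized counts of 1249.7, 1206 and 1186 (control siRNA), 761, 873 and 764 (PKR siRNA 1) and 2980.02, 3009.8 and 3058 (PKR siRNA 2). Every PKR siRNA 2 library was above, and every PKR siRNA 1 library below, the control libraries. The rise with PKR siRNA 2 was 1.31 (SE 0.05, limma adjusted p = 1.72e-37) and the fall with PKR siRNA 1 was -0.60 (SE 0.05, limma adjusted p = 6.99e-18). That fall lay just past the fold threshold: without the first control library it was -0.58, and without the first or the third PKR siRNA 1 library it was -0.57, each under the threshold.

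KRT18, the type I partner of KRT8 (chr12:52948871-52952901, plus strand), moved less. Under control siRNA KRT18 stood at 1523, 1516 and 1525 normalized counts, under PKR siRNA 1 at 977, 1029 and 1010.2, under PKR siRNA 2 at 1800.3, 1925 and 2003. All PKR siRNA 1 libraries lay below and all PKR siRNA 2 libraries above the control. The fall with PKR siRNA 1 was -0.60 (SE 0.05, limma adjusted p = 3.64e-18), at -0.58 and under the fold threshold without the first PKR siRNA 1 library, and with PKR siRNA 2 the value was 0.33 (SE 0.05, limma adjusted p = 2.26e-08), under the fold threshold. KRT8 and KRT18 are neighbours on opposite strands and share 5.96% and 8.79% of their exon bases, and the sources used here do not give the strand setting of the counting, so reads in that stretch cannot be assigned.

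KRT80, a type II keratin found at desmosomes and in the cytoplasm of many epithelia, lies at chr12:52168996-52192000, minus strand. Normalized counts of KRT80 came to 201, 179 and 203 under control siRNA, 54.4, 56.2 and 73.3 under PKR siRNA 1, then 17.9, 18.2 and 21.6 under PKR siRNA 2. Here both PKR siRNAs lay below the control, PKR siRNA 2 furthest. The log2 fold changes were -1.66 (SE 0.15, limma adjusted p = 1.19e-15) and -3.27 (SE 0.15, limma adjusted p = 9.63e-32). KRT7, the usual type II partner of KRT19 in ducts (chr12:52233170-52248925, plus strand), had few reads. KRT7 had normalized counts of 20.5, 15.04 and 18.96 (control siRNA), 14.4, 9.98 and 9.65 (PKR siRNA 1) and 1.99, 5.36 and 6.58 (PKR siRNA 2). The PKR siRNA 2 libraries lay below all others. KRT7 fell with PKR siRNA 2 (-1.86, SE 0.37, limma adjusted p = 1.62e-05), and its value with PKR siRNA 1 was -0.64 (SE 0.37, limma adjusted p = 0.149). The difference between the PKR siRNAs, -1.22 (limma adjusted p = 0.00348), was -0.81 with an adjusted p of 0.0582 when the first PKR siRNA 2 library was left out of limma. With C16 KRT7 was too low to test. Normalized counts of KRT7 came to 4.86, 5.71 and 0.761 under DMSO, 2.13, 1.15 and 8.51 under 400 nM C16, then 3.03, 4.87 and 4.77 under 800 nM C16. Those groups overlapped.

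In the C16 table KRT19 fell and KRT80 rose. KRT19 had normalized counts of 1655, 1549 and 1543 (DMSO), 818, 905 and 801 (400 nM C16) and 519, 612 and 555 (800 nM C16). Each 800 nM library lay below each 400 nM library, and each of those below DMSO. KRT19 fell with 400 nM (-0.91, SE 0.07, limma adjusted p = 8.79e-18) and with 800 nM (-1.49, SE 0.07, limma adjusted p = 1.15e-27). Under DMSO KRT80 stood at 28.2, 23.8 and 32.7 normalized counts, under 400 nM C16 at 99.97, 87.6 and 102, under 800 nM C16 at 64.6, 82.9 and 72.5. All 6 C16 libraries lay above DMSO, with those at 800 nM below those at 400 nM. The rise of KRT80 was 1.75 (SE 0.16, limma adjusted p = 7.81e-14) with 400 nM and 1.35 (SE 0.16, limma adjusted p = 1.81e-10) with 800 nM.

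KRT8 and KRT18 were not called with C16. Normalized counts of KRT8 came to 4389.8, 4501 and 4191 under DMSO, 3702, 4003 and 3874 under 400 nM C16, then 3209, 3554 and 3371 under 800 nM C16. The KRT8 groups lay in order of dose without overlap, with differences under the fold threshold (-0.18, SE 0.05, limma adjusted p = 0.00512, and -0.37, SE 0.05, limma adjusted p = 8.46e-09). KRT18 had normalized counts of 1462, 1476 and 1381 (DMSO), 1469, 1586 and 1461 (400 nM C16) and 1386, 1472 and 1474 (800 nM C16). The KRT18 groups overlapped, with log2 fold changes of 0.06 and 0.00. VIM, the mesenchymal intermediate filament, moved with C16 as well: its log2 fold change was -0.35 with 400 nM and -0.61 with 800 nM (limma adjusted p = 2.19e-07 and 3.94e-15), against 0.06 and 0.15 with PKR siRNA 1 and 2. The part of this in the keratin values was not tested.

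The ratios of KRT8, a type II keratin, and of KRT19, another type I keratin, to KRT18 were also taken within each library. KRT8 to KRT18 was 1.66 ± 0.0300 under control siRNA, 1.29 ± 0.0469 under PKR siRNA 1, then 2.58 ± 0.0411 under PKR siRNA 2, and 3.03 ± 0.0240, 2.57 ± 0.0747 and 2.34 ± 0.0668 with DMSO, 400 nM and 800 nM C16 (SD, n = 3 each). No library of a group overlapped another group of its table. KRT19 to KRT18 was 0.798 ± 0.0216 under control siRNA, overlapped by 0.795 ± 0.0485 under PKR siRNA 1, but 1.58 ± 0.0661 under PKR siRNA 2. With C16 it went from 1.10 ± 0.0440 in DMSO to 0.559 ± 0.0114 and 0.389 ± 0.0230. These are ratios of reads, not of molecules, since the genes differ in length.

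**Figure D2:**
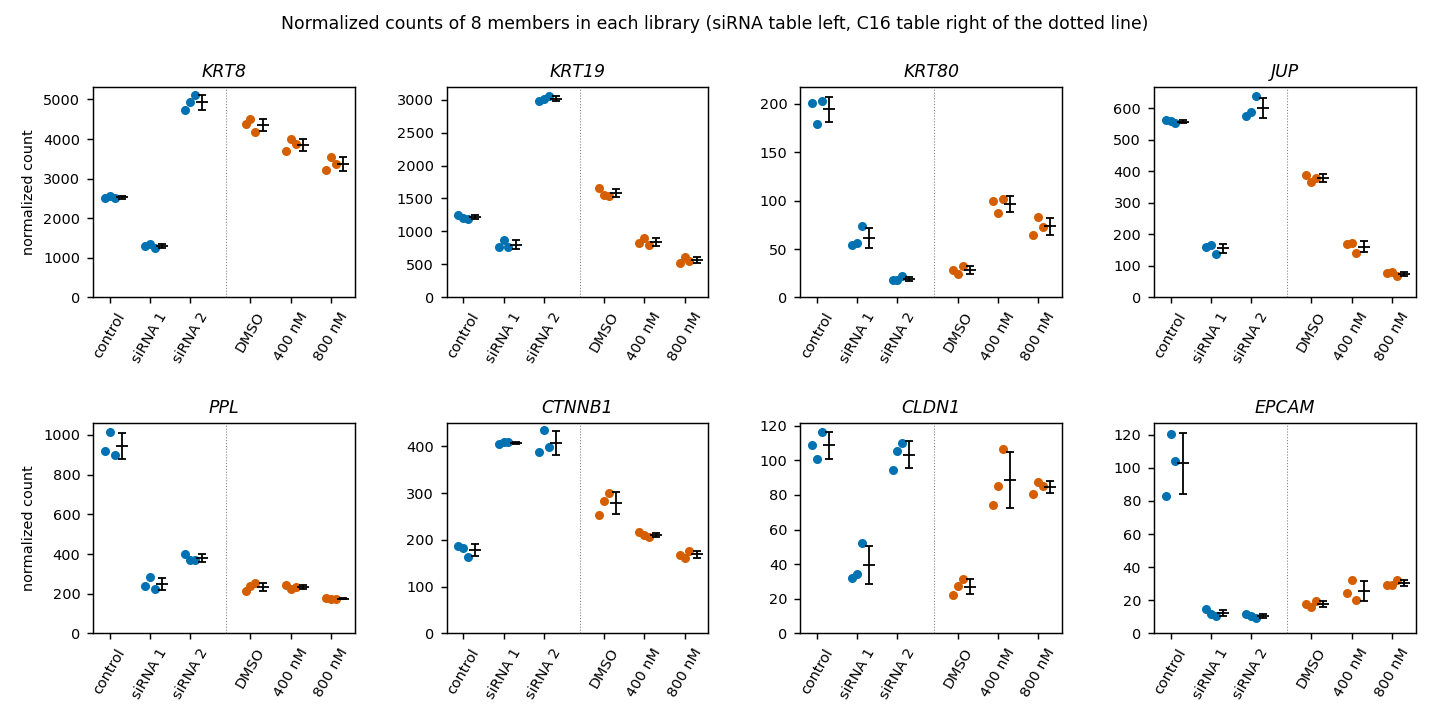
Normalized counts of 8 members in each library (points), with the mean ± SD of the 3 libraries of a group; siRNA libraries lie left and C16 libraries right of the dotted line, and levels are not comparable across it. Among the siRNA libraries KRT8 and KRT19 are lowest with PKR siRNA 1 and highest with PKR siRNA 2, and CTNNB1 lies above the control with each PKR siRNA. JUP falls from 378 to 161 to 75.3 over the DMSO, 400 nM and 800 nM groups.

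Among the 8 desmosome and plakin genes tested in the siRNA table, 4 fell with PKR siRNA 1 and 2 fell with PKR siRNA 2. Of all genes, 12.6% and 12.8% were called down. Limma called 0 of the 8 up with either siRNA, beside 8.53% and 10.8% of all genes. Upward changes with an unadjusted p under 0.05 numbered 0 and 1, edgeR called 0 and 1 up, and DESeq2 0 in each. JUP encodes plakoglobin, which links desmosomal and classical cadherins to the filaments, and lies at chr17:41754607-41786712, minus strand. Under control siRNA JUP stood at 562, 559 and 553 normalized counts, under PKR siRNA 1 at 161, 167 and 139, under PKR siRNA 2 at 576, 588 and 638. PKR siRNA 1 set this gene far below the control, while the PKR siRNA 2 libraries lay just above it. The log2 fold change was -1.84 (SE 0.07, limma adjusted p = 6.47e-36) with PKR siRNA 1, 0.10 (SE 0.07, limma adjusted p = 0.237) with PKR siRNA 2, and 1.94 (SE 0.07, limma adjusted p = 5.68e-38) between the PKR siRNAs.

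Under DMSO JUP stood at 389.6, 367 and 378 normalized counts, under 400 nM C16 at 170.2, 172 and 140.4, under 800 nM C16 at 76.7, 80.4 and 68.7. The 3 groups stood apart in order of dose. JUP fell with 400 nM (-1.23, SE 0.10, limma adjusted p = 3.18e-15) and further with 800 nM (-2.32, SE 0.10, limma adjusted p = 1.50e-27). The step between the doses was -1.08 (SE 0.10, limma adjusted p = 2.91e-12). In each comparison without overlap an exact two-sided permutation test of the 3 against 3 libraries gave p = 0.1, the smallest this design allows.

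The promoters of 5 members, picked after their values and matches were seen, are shown so that the letters can be read beside the values. KRT8 differed with the smallest adjusted p between the PKR siRNAs, JUP, CLDN1 and CTNNB1 were called in both tables, and the CLDN7 window held the most matches. They come from RefSeq with the assembly GRCh38.p14, run 5′ to 3′ on the gene's strand around a start site, and are in lower case. Capitals mark CACCTG or its reverse complement CAGGTG, letters that ZEB and SNAIL family repressors are known to bind, searched on both strands. These letters occur in 20.6% of 35116 RefSeq promoters of the same length. A further motif, ACCGGTT, known from grainyhead-like factors, occurs in 0.772%, and neither motif contains the other. Only 17 of the 35 members had a promoter among these sequences, and 9 of the 17 held CACCTG in at least 1 listed window, too few to read a share over the members.
KRT8, chr12:52926420-52926719, minus strand: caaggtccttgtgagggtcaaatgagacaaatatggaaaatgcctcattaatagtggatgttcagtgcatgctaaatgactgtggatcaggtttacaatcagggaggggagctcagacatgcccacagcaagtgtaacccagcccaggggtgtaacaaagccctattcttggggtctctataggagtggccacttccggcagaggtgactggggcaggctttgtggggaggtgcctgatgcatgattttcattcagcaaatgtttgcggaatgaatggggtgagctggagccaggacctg
JUP, chr17:41785927-41786226, minus strand: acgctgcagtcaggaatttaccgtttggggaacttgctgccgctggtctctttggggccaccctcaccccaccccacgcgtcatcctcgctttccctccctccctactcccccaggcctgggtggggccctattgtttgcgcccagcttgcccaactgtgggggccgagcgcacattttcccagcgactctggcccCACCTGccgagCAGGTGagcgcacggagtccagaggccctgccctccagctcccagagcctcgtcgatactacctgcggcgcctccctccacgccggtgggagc
CLDN7, chr17:7262429-7262728, minus strand: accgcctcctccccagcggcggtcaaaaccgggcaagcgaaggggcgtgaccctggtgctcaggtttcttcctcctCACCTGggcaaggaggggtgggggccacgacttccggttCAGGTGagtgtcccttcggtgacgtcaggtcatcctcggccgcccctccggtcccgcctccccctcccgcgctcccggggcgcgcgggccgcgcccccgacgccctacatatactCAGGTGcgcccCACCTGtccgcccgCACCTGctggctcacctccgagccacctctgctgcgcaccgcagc
CLDN1, chr3:190322397-190322696, minus strand: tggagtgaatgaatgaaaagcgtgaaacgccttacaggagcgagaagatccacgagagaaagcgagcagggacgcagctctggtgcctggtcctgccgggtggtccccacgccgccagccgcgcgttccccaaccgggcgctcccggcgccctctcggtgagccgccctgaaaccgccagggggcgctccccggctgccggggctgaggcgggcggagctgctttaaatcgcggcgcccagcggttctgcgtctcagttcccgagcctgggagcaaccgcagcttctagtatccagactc
CTNNB1, chr3:41199255-41199554, plus strand: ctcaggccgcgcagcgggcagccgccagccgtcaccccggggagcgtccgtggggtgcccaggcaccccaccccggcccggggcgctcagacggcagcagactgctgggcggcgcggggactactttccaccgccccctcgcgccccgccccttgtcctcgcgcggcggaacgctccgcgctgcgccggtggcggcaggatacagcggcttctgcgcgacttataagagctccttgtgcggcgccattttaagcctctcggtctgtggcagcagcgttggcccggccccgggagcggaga
The JUP window held 2 matches and the CLDN7 window 5, whereas the KRT8, CLDN1 and CTNNB1 windows held 0. The KRT8 window, the only one listed for that gene, lies inside the gene span given above and away from its 5′ end. Its count of 0 therefore does not describe other KRT8 start sites. JUP and CLDN7 each have a further listed start whose window held 0. A match describes letters only and is not evidence of binding.

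PPL encodes periplakin, a plakin of the cell cortex that binds keratin filaments (chr16:4882507-4937135, minus strand). Normalized counts of PPL came to 919, 1016 and 898 under control siRNA, 238, 286 and 225 under PKR siRNA 1, then 402, 368 and 371 under PKR siRNA 2. Both PKR siRNA groups lay well below the control and did not overlap each other. The log2 fold changes were -1.92 (SE 0.07, limma adjusted p = 1.49e-37) and -1.31 (SE 0.07, limma adjusted p = 1.47e-27). The higher level with PKR siRNA 2 than with PKR siRNA 1, 0.61 (limma adjusted p = 7.87e-12), fell under the fold threshold to 0.58 without the first PKR siRNA 1 library, 0.54 without the third, and 0.57 without the first PKR siRNA 2 library. With C16, PPL stood at 215, 237 and 252 normalized counts in DMSO libraries, 246, 221 and 233 at 400 nM and 179, 172 and 175 at 800 nM. Only the 800 nM libraries lay apart, with -0.42 (SE 0.09, limma adjusted p = 0.000150), under the fold threshold. EVPL, which encodes the related envoplakin, had -0.48 (SE 0.10, limma adjusted p = 2.78e-05) with PKR siRNA 1 and -0.55 (SE 0.10, limma adjusted p = 1.42e-06) with PKR siRNA 2, past the p threshold and not the fold threshold. PPL to EVPL within a library was 4.36 ± 0.346 under control siRNA, 1.61 ± 0.201 under PKR siRNA 1, then 2.58 ± 0.0671 under PKR siRNA 2, without overlap.

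DSP encodes desmoplakin, the plakin that anchors keratin to the desmosome (chr6:7541637-7586713, plus strand). DSP had normalized counts of 80.1, 92.4 and 90.1 (control siRNA), 59.98, 45.4 and 42.5 (PKR siRNA 1) and 92.5, 86.9 and 104 (PKR siRNA 2). All PKR siRNA 1 libraries lay below the control, and PKR siRNA 2 overlapped it. DSP fell with PKR siRNA 1 (-0.83, SE 0.14, limma adjusted p = 8.37e-07) and its value with PKR siRNA 2 was 0.11 (SE 0.14, limma adjusted p = 0.549). Normalized counts of DSP came to 87.4, 91.4 and 110.4 under DMSO, 101, 125 and 134 under 400 nM C16, then 122, 101 and 109 under 800 nM C16. The C16 groups overlapped DMSO.

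PKP3, a plakophilin of the desmosomal plaque (chr11:392599-404908, plus strand), went another way. Under control siRNA PKP3 stood at 118, 116 and 114 normalized counts, under PKR siRNA 1 at 97.7, 127 and 119, under PKR siRNA 2 at 36.8, 45.03 and 47.96. Here PKR siRNA 1 overlapped the control and PKR siRNA 2 lay below both. PKP3 fell with PKR siRNA 2 (-1.41, SE 0.13, limma adjusted p = 3.13e-15), its value with PKR siRNA 1 was -0.03 (SE 0.13, limma adjusted p = 0.891), and the difference between them was -1.38 (SE 0.13, limma adjusted p = 4.36e-15). PKP3 had normalized counts of 39.8, 25.7 and 44.2 (DMSO), 64.9, 66.9 and 64.9 (400 nM C16) and 39.3, 62.1 and 43.9 (800 nM C16). All 400 nM libraries lay above DMSO and the 800 nM libraries overlapped it. PKP3 rose with 400 nM (0.86, SE 0.18, limma adjusted p = 0.000207), and the value with 800 nM was 0.40 (SE 0.18, limma adjusted p = 0.0640).

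DSC2, the desmocollin of simple epithelia (chr18:31065974-31102432, minus strand), was low. Normalized counts of DSC2 came to 14.4, 8.59 and 15.2 under control siRNA, 10.00, 2.72 and 5.79 under PKR siRNA 1, then 22.9, 26.8 and 15.99 under PKR siRNA 2. The PKR siRNA 1 and control libraries overlapped, and PKR siRNA 2 lay above both. Its fall with PKR siRNA 1 was -1.03 (SE 0.35, limma adjusted p = 0.0116). Left out of limma in turn, the first control library gave -0.93 (adjusted p = 0.0559), the third control library -0.90 (0.06498) and the second PKR siRNA 1 library -0.63 (0.152), and DESeq2 gave an adjusted p of 0.08999, so this call rests on single libraries. Between the PKR siRNAs the difference was 1.78 (SE 0.35, limma adjusted p = 9.94e-06). Under DMSO DSC2 stood at 6.80, 4.76 and 2.28 normalized counts, under 400 nM C16 at 5.32, 4.61 and 7.45, under 800 nM C16 at 5.04, 3.66 and 6.68. There DSC2 was too low to test and its groups overlapped. DSG2, the desmoglein of simple epithelia, and PKP4, a relative of the plakophilins, were tested in each table and not called in any comparison with a control, with log2 fold changes from -0.46 (DSG2, PKR siRNA 2) to 0.56 (DSG2, 800 nM C16, limma adjusted p = 0.00501).

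**Figure D3:**
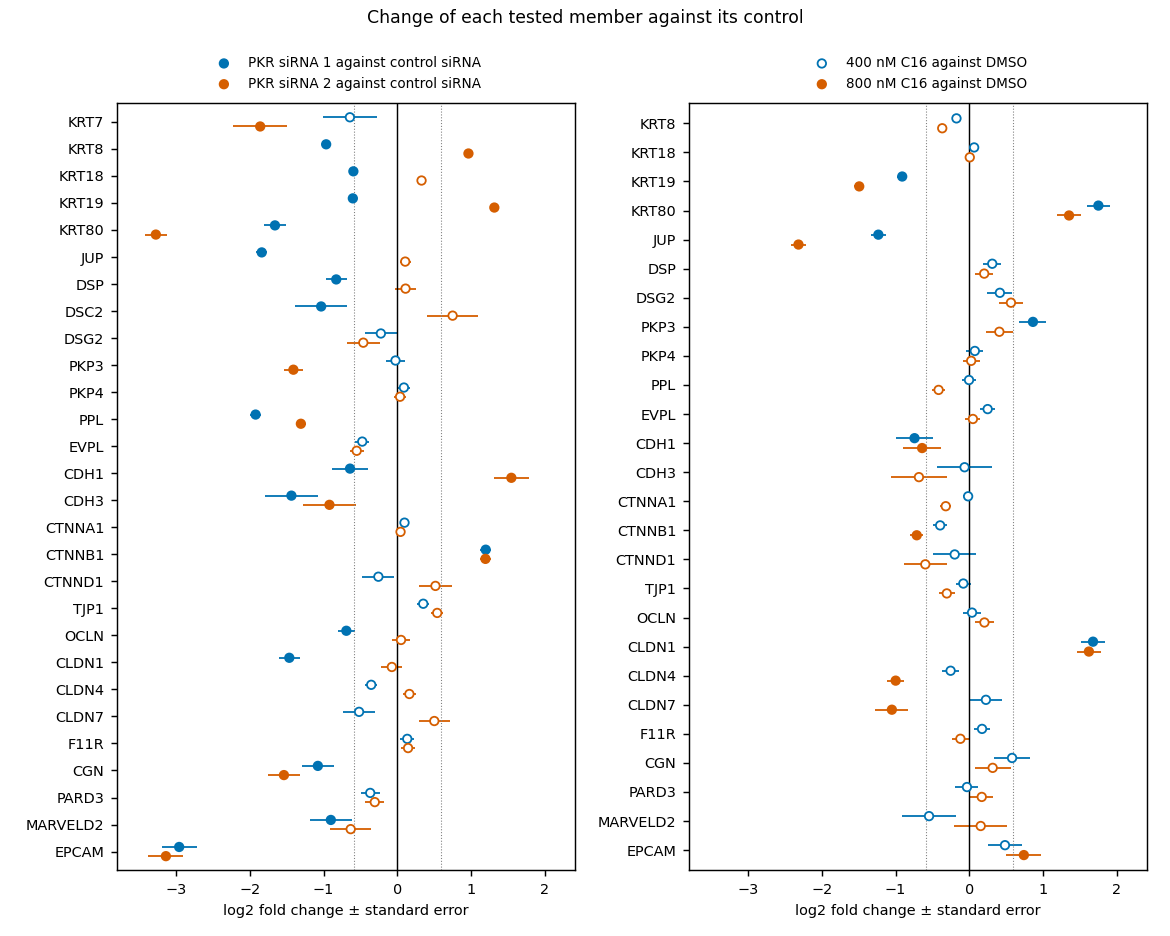
Log2 fold change ± standard error of each tested member from limma, PKR siRNAs against control siRNA (left) and C16 against DMSO (right); filled points passed both thresholds and dotted lines mark a fold of 1.5. With PKR siRNA 1, 15 filled points lie left of 0 and 1 right of it, and KRT8, KRT19 and CDH1 lie on opposite sides of 0 for the 2 PKR siRNAs.

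The cadherins and catenins did not move as a block. CTNNB1 encodes beta-catenin, which binds cadherin tails and is also the effector of Wnt signalling (chr3:41199451-41240448, plus strand). CTNNB1 had normalized counts of 187, 183 and 163 (control siRNA), 405, 408 and 408 (PKR siRNA 1) and 387, 435 and 398 (PKR siRNA 2). All 6 PKR siRNA libraries lay above the control, and the 2 PKR siRNA groups overlapped. CTNNB1 was the only member that limma called up with PKR siRNA 1 (1.20, SE 0.08, limma adjusted p = 2.08e-23), and it rose with PKR siRNA 2 too (1.19, SE 0.08, limma adjusted p = 1.65e-23). No difference between the PKR siRNAs was detected at this precision (adjusted p = 0.970 from limma, SE 0.08).

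Normalized counts of CTNNB1 came to 253, 283 and 300.01 under DMSO, 216, 209.9 and 206 under 400 nM C16, then 168, 162 and 177 under 800 nM C16. The order was DMSO, 400 nM and 800 nM in every library. CTNNB1 fell with 800 nM (-0.71, SE 0.09, limma adjusted p = 2.67e-09), and with 400 nM it passed the p threshold and not the fold threshold (-0.40, SE 0.09, limma adjusted p = 0.000626). JUP and CTNNB1 encode close relatives, and their ratio within a library was 3.15 ± 0.208 under control siRNA, 0.382 ± 0.0366 under PKR siRNA 1, then 1.48 ± 0.127 under PKR siRNA 2 (SD, n = 3). With DMSO, 400 nM and 800 nM C16 it was 1.37 ± 0.153, 0.762 ± 0.0726 and 0.447 ± 0.0540. No group overlapped another of its table.

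**Figure D4:**
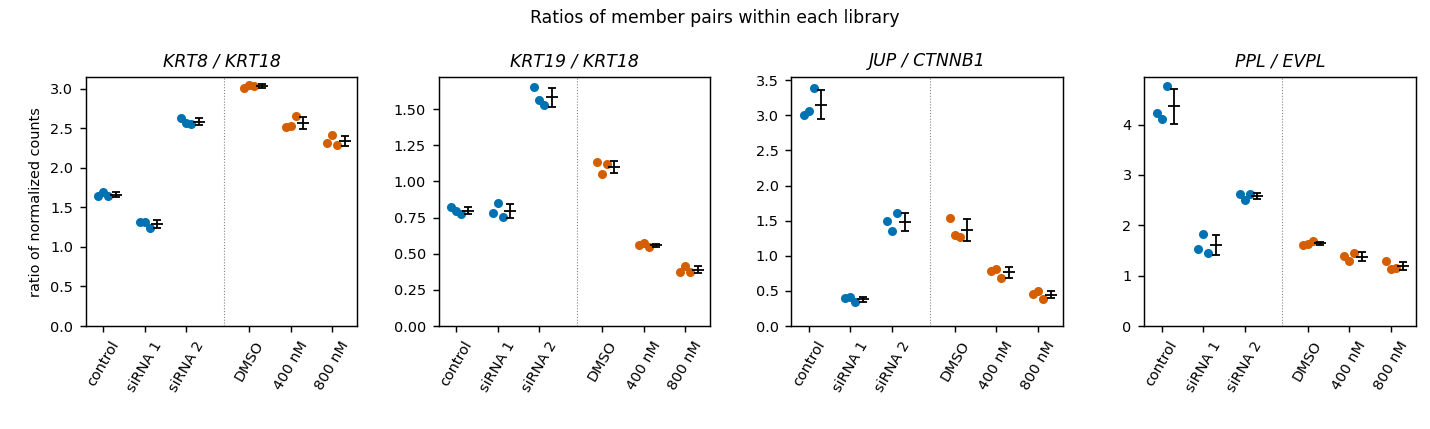
Ratios of normalized counts within each library (points) for 4 pairs of members, with the mean ± SD of the 3 libraries of a group; the dotted line parts the siRNA table from the C16 table. The JUP to CTNNB1 ratio is highest in the control of each table, at 3.15 and 1.37, and the KRT19 to KRT18 ratio of PKR siRNA 1 lies on that of its control.

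CDH1, which encodes E-cadherin, the cadherin of epithelial adherens junctions (chr16:68737292-68835541, plus strand), rose with PKR siRNA 2. Under control siRNA CDH1 stood at 17.5, 22.6 and 16.1 normalized counts, under PKR siRNA 1 at 14.4, 9.07 and 11.6, under PKR siRNA 2 at 61.7, 55.8 and 50.8. The PKR siRNA 2 libraries lay far above all others. The rise was 1.54 (SE 0.24, limma adjusted p = 1.09e-07), and the difference from PKR siRNA 1 was 2.19 (SE 0.24, limma adjusted p = 1.29e-12). The fall with PKR siRNA 1, -0.64 (SE 0.24, limma adjusted p = 0.0242), was less secure. Left out of limma in turn, the second control library gave -0.51 (adjusted p = 0.124) and the second PKR siRNA 1 library -0.49 (0.11999), and edgeR and DESeq2 gave adjusted p of 0.0560 and 0.150.

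With C16, CDH1 was low in reads. CDH1 had normalized counts of 32.1, 24.8 and 35.8 (DMSO), 18.1, 17.3 and 18.1 (400 nM C16) and 26.2, 13.4 and 20.04 (800 nM C16). All 400 nM libraries lay below DMSO and the 800 nM libraries overlapped it. CDH1 fell with 400 nM (-0.74, SE 0.25, limma adjusted p = 0.0218) and with 800 nM (-0.64, SE 0.25, limma adjusted p = 0.0332). With 400 nM, limma without the first DMSO library, the third DMSO library or the second 400 nM library gave adjusted p of 0.0729, 0.113 and 0.0566, with values from -0.72 to -0.63. With 800 nM it gave -0.61 and -0.53 without the first or the third DMSO library, and -0.40 and -0.67 without the second or the third 800 nM library, with adjusted p of 0.0906, 0.148, 0.229 and 0.0539. DESeq2 called neither (adjusted p = 0.0825 and 0.132).

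CDH3, which encodes P-cadherin (chr16:68644248-68699054, plus strand), had few reads. Normalized counts of CDH3 came to 18.5, 16.1 and 16.1 under control siRNA, 6.66, 5.44 and 4.82 under PKR siRNA 1, then 10.9, 6.43 and 8.46 under PKR siRNA 2. Both PKR siRNA groups lay below the control. The mean of CDH3 with each PKR siRNA was under the minimum of 10, so it was tested only through its control libraries. With that limit CDH3 fell with PKR siRNA 1 (-1.44, SE 0.36, limma adjusted p = 0.000660) and PKR siRNA 2 (-0.92, SE 0.36, limma adjusted p = 0.0297). The latter call was lost in limma without the second PKR siRNA 2 library (-0.75, adjusted p = 0.118) or the third (-0.92, adjusted p = 0.0552), and with DESeq2 (adjusted p = 0.105). Under DMSO CDH3 stood at 11.7, 6.67 and 18.3 normalized counts, under 400 nM C16 at 15.95, 10.4 and 7.45, under 800 nM C16 at 7.06, 7.31 and 5.72. The 800 nM libraries lay below those at 400 nM and overlapped DMSO, and the log2 fold changes were -0.07 (SE 0.37, limma adjusted p = 0.918) and -0.68 (SE 0.37, limma adjusted p = 0.131). CTNNA1, which encodes the catenin that joins cadherins to actin, was not called in any comparison, and its largest change was -0.32 with 800 nM C16 (limma adjusted p = 0.000210). CTNND1, which encodes p120-catenin, differed between the PKR siRNAs (0.77, SE 0.22, limma adjusted p = 0.00174) and was not called against a control. Its value is uncertain, because 93.0% of its exon bases are shared with the readthrough gene TMX2-CTNND1 on the same strand. DSG2, CTNNA1 and CLDN7 share 3.02%, 3.19% and 1.86% of theirs with a gene on the opposite strand.

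Of the 9 tight junction and polarity genes tested, 4 fell with PKR siRNA 1, where 12.6% of all genes were called down. With PKR siRNA 2, 1 fell (11.1%), close to the 12.8% of all genes called down. CLDN1 encodes claudin-1, a sealing claudin (chr3:190305701-190322446, minus strand). CLDN1 had normalized counts of 109, 101 and 117 (control siRNA), 32.2, 34.5 and 52.1 (PKR siRNA 1) and 94.5, 105 and 110.03 (PKR siRNA 2). PKR siRNA 1 lay below the control without overlap and PKR siRNA 2 overlapped it. CLDN1 fell with PKR siRNA 1 (-1.47, SE 0.14, limma adjusted p = 1.84e-14), had -0.08 (SE 0.14, limma adjusted p = 0.693) with PKR siRNA 2, and differed between them by 1.39 (SE 0.14, limma adjusted p = 7.87e-14).

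Normalized counts of CLDN1 came to 22.3, 27.6 and 31.2 under DMSO, 74.4, 85.3 and 106 under 400 nM C16, then 80.7, 87.7 and 84.9 under 800 nM C16. All C16 libraries lay above all DMSO libraries, and the 2 doses overlapped. CLDN1 rose with 400 nM (1.67, SE 0.16, limma adjusted p = 5.02e-13) and with 800 nM (1.62, SE 0.16, limma adjusted p = 7.66e-13), the largest rise of a member with 800 nM. The difference between the doses was -0.06 (SE 0.16, limma adjusted p = 0.861).

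CLDN4 and CLDN7, further claudins of the pancreatic duct (chr7:73830863-73832693, plus strand, and chr17:7259903-7263193, minus strand), were called against a control with 800 nM C16 and not with the other treatments. CLDN4 had normalized counts of 170.03, 157 and 164 (DMSO), 136, 133 and 143 (400 nM C16) and 63.5, 92.6 and 91.6 (800 nM C16). Under DMSO CLDN7 stood at 34.98, 31.4 and 31.98 normalized counts, under 400 nM C16 at 42.5, 35.7 and 37.2, under 800 nM C16 at 16.1, 12.2 and 18.1. For each gene the 800 nM libraries lay below all others. CLDN4 fell with 800 nM (-0.9999, SE 0.12, limma adjusted p = 3.27e-10) and so did CLDN7 (-1.05, SE 0.22, limma adjusted p = 8.83e-05), with values at 400 nM of -0.26 (SE 0.12, limma adjusted p = 0.106) and 0.22 (SE 0.22, limma adjusted p = 0.495). Under control siRNA CLDN4 stood at 235, 241 and 262 normalized counts, under PKR siRNA 1 at 179.9, 189 and 207, under PKR siRNA 2 at 296, 253 and 276. Normalized counts of CLDN7 came to 35.9, 24.7 and 32.2 under control siRNA, 21.1, 21.8 and 20.3 under PKR siRNA 1, then 33.8, 49.3 and 49.8 under PKR siRNA 2. For both genes PKR siRNA 1 lay below the control without overlap, and PKR siRNA 2 overlapped it. In the siRNA table CLDN4 had values of -0.36 (SE 0.09, limma adjusted p = 0.000351) and 0.16 (SE 0.09, limma adjusted p = 0.112), under the fold threshold. CLDN7 had -0.52 (SE 0.21, limma adjusted p = 0.0395) and 0.50 (SE 0.21, limma adjusted p = 0.0469), also under it, and differed between the PKR siRNAs (1.02, SE 0.21, limma adjusted p = 3.14e-05).

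OCLN encodes occludin (chr5:69492292-69558104, plus strand). OCLN had normalized counts of 138, 118 and 132 (control siRNA), 96.6, 73.5 and 70.4 (PKR siRNA 1) and 130.3, 137 and 133 (PKR siRNA 2). PKR siRNA 1 lay below the control and PKR siRNA 2 overlapped it. OCLN fell with PKR siRNA 1 (-0.69, SE 0.12, limma adjusted p = 7.83e-07), and its value with PKR siRNA 2 was 0.05 (SE 0.12, limma adjusted p = 0.763). Normalized counts of OCLN came to 80.6, 84.8 and 98.99 under DMSO, 77.6, 96.9 and 96.8 under 400 nM C16, then 96.8, 105 and 102 under 800 nM C16. With C16 the libraries overlapped DMSO. MARVELD2 encodes tricellulin, which seals the corners where 3 cells meet (chr5:69415112-69442063, plus strand). Its 7 exon blocks are listed again on alternative assembly sequences, as are the 32 of TJP1. Reads of both genes may have matched several places, and the effect on their counts was not tested. Under control siRNA MARVELD2 stood at 22.6, 22.6 and 24.6 normalized counts, under PKR siRNA 1 at 11.1, 14.5 and 10.6, under PKR siRNA 2 at 14.9, 13.9 and 15.05. Both PKR siRNA groups lay below the control. MARVELD2 fell with PKR siRNA 1 (-0.90, SE 0.28, limma adjusted p = 0.00614), while the value with PKR siRNA 2 was -0.63 (SE 0.28, limma adjusted p = 0.0561). MARVELD2 had normalized counts of 12.6, 12.4 and 10.7 (DMSO), 3.19, 9.23 and 14.9 (400 nM C16) and 13.1, 13.4 and 13.4 (800 nM C16). The 400 nM libraries overlapped DMSO and those at 800 nM lay just above it, with log2 fold changes of -0.55 (SE 0.36, limma adjusted p = 0.277) and 0.15 (SE 0.36, limma adjusted p = 0.758).

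CGN encodes cingulin, a scaffold of tight junctions (chr1:151511386-151538691, plus strand). Normalized counts of CGN came to 59.6, 54.8 and 50.2 under control siRNA, 22.2, 21.8 and 33.8 under PKR siRNA 1, then 19.9, 13.9 and 21.6 under PKR siRNA 2. Both PKR siRNA groups lay below the control. CGN fell with PKR siRNA 1 (-1.08, SE 0.22, limma adjusted p = 2.92e-05) and PKR siRNA 2 (-1.54, SE 0.22, limma adjusted p = 8.27e-09). Under DMSO CGN stood at 15.5, 21.9 and 15.99 normalized counts, under 400 nM C16 at 30.8, 26.5 and 23.4, under 800 nM C16 at 20.2, 25.6 and 20.99. With 400 nM every library was above DMSO, but the value did not pass the test (0.58, SE 0.25, limma adjusted p = 0.0741). TJP1, which encodes the scaffold ZO-1, F11R, which encodes junctional adhesion molecule A, and PARD3, a polarity gene, were not called against a control. Their log2 fold changes ran from -0.37 (PARD3, PKR siRNA 1) to 0.54 (TJP1, PKR siRNA 2, limma adjusted p = 1.17e-07).

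EPCAM encodes an epithelial cell adhesion molecule widely used to mark carcinoma cells (chr2:47369148-47387028, plus strand). EPCAM had normalized counts of 83.2, 120.3 and 104 (control siRNA), 14.4, 11.8 and 10.6 (PKR siRNA 1) and 11.9, 10.7 and 9.40 (PKR siRNA 2). All 6 PKR siRNA libraries lay far below the control. EPCAM fell with PKR siRNA 1 (-2.96, SE 0.24, limma adjusted p = 2.20e-18), the largest fall of a member with that siRNA, and with PKR siRNA 2 (-3.14, SE 0.24, limma adjusted p = 8.03e-20). The difference between the PKR siRNAs was -0.18 (SE 0.24, limma adjusted p = 0.535), so none was detected. Normalized counts of EPCAM came to 17.5, 16.2 and 19.8 under DMSO, 24.5, 32.3 and 20.2 under 400 nM C16, then 29.3, 29.2 and 32.4 under 800 nM C16. All C16 libraries lay above DMSO. EPCAM rose with 800 nM (0.74, SE 0.24, limma adjusted p = 0.00866), a call that DESeq2 did not make (adjusted p = 0.0536), and its value with 400 nM was 0.48 (SE 0.24, limma adjusted p = 0.128).

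The remaining members had too few reads to test in either table, namely KRT81, PKP2, TJP3, CLDN3, ST14, ESRP1 and GRHL2. PKP2, a plakophilin, nevertheless had 17.5, 16.1 and 17.1 normalized counts under control siRNA, 5.55, 6.35 and 1.93 under PKR siRNA 1, then 7.96, 5.36 and 8.46 under PKR siRNA 2. CLDN3, a claudin, had 15.5, 20.00 and 8.38 normalized counts with DMSO, 5.32, 2.31 and 4.26 with 400 nM C16, and 10.1, 8.53 and 4.77 with 800 nM C16, and its 400 nM libraries lay below all DMSO libraries. ST14, which encodes the epithelial protease matriptase, was at 0 in the 3 PKR siRNA 1 libraries and at most 5.04 elsewhere. ESRP1, an epithelial splicing regulator, ranged from 0 to 7.19. Its libraries at each C16 dose all lay above DMSO, with group means from 0.825 to 4.08 in that table. With PKR siRNA 2 they all lay below control siRNA, and PKR siRNA 1 overlapped it. These are few reads. GRHL2, a grainyhead-like factor of epithelia, was at 0 in 17 libraries and at 0.907 in 1 library of PKR siRNA 1, so its transcript was at the limit of detection at this depth. In sum 20 members were called in at least 1 of the 4 comparisons with a control, as were 49.6% of all genes tested in either table, while 8 were tested and not called in any, and 7 were not tested.

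The comparison of the C16 doses asked whether the members changed further from 400 nM to 800 nM. JUP, CLDN4 and CLDN7 were lower with 800 nM, where 3.95% of all genes were called lower. By limma 0 members were higher, where 1.13% of all genes were, and 0 passed an unadjusted p under 0.05, edgeR or DESeq2. CLDN7 changed most (-1.27, SE 0.22, limma adjusted p = 2.81e-05), and CLDN4 had -0.74 (SE 0.12, limma adjusted p = 5.10e-06). Without the first 800 nM library the CLDN4 value was -0.57, under the fold threshold, and without the second 800 nM library 5 members were called lower in place of 3. In 14 of the 26 tested members every 800 nM library lay below every 400 nM library, beside 17% of all genes, and in 0 members did they all lie above, beside 13.4%. In KRT8, KRT19, JUP, CTNNB1 and CLDN4 every 400 nM library lay below every DMSO library and every 800 nM library lower again, an order that 5.71% of all genes showed. The rising order was shown by 0 members and 4.51% of all genes. The 2 dose groups overlapped in depth, with 977167 to 1050520 reads at 400 nM and 894145 to 1150862 at 800 nM, whereas the DMSO libraries held 1148151 to 1474308.

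A wider list of 70 other epithelial genes, of further keratins, claudins, nectins, polarity genes and regulators, was read in the same fits. Among siRNA libraries 27 of them were tested, of which 4 (14.8%) rose and 11 (40.7%) fell with PKR siRNA 1, where 8.53% and 12.6% of all genes did. With PKR siRNA 2, 6 (22.2%) rose and 8 (29.6%) fell, beside 10.8% and 12.8% of all genes. The largest fall was that of SPINT1, an inhibitor of matriptase. The log2 fold changes with PKR siRNA 1 and 2 were -3.36 (SE 0.40, limma adjusted p = 3.56e-11) and -2.63 (SE 0.40, limma adjusted p = 4.85e-08). SPINT1 had means of 36.4 ± 2.83 normalized counts under control siRNA, 3.29 ± 3.07 under PKR siRNA 1 and 5.01 ± 0.331 under PKR siRNA 2. Both PKR siRNA means were under the minimum mean for testing, so SPINT1 was tested only through its control libraries. The largest rise with PKR siRNA 1 was that of CLDN15 (1.31, limma adjusted p = 0.00119). CLDN15 rests on few reads, with means of 6.37 ± 3.02 normalized counts under control siRNA and 16.1 ± 1.09 under PKR siRNA 1. Its control mean was under the minimum mean for testing, so it was tested only through its PKR siRNA libraries. The largest rise with PKR siRNA 2 was that of PERP, a desmosomal p53 target (1.17, limma adjusted p = 2.13e-36). Among C16 libraries 24 of them were tested, of which 3 rose and 3 fell at each dose, that is 12.5% in each direction. Of all genes 7.08% rose and 5.45% fell with 400 nM, and 11.6% rose and 14.1% fell with 800 nM, so the counts at 800 nM were close to the background. LLGL2, a polarity gene, fell most, by 1.11 with 400 nM and by 1.95 with 800 nM on the log2 scale (limma adjusted p = 2.08e-08 and 5.94e-17). AP1M2, an adaptor subunit of epithelial sorting, rose most, by 1.30 and 1.71 (limma adjusted p = 0.00324 and 4.94e-05). AP1M2 rests on few reads. Its means were 5.17 ± 2.30 normalized counts with DMSO, 13.8 ± 3.84 with 400 nM and 18.5 ± 4.00 with 800 nM. The DMSO mean of AP1M2 was under the minimum mean for testing, so it was tested only through its C16 libraries.

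Mesenchymal and fibroblast markers moved with the groups as well. The summed normalized counts of 8 mesenchymal markers were 4803 to 5002 under control siRNA, 5115 to 5152 under PKR siRNA 1, then 5384 to 5652 under PKR siRNA 2, and 3166 to 3193, 2456 to 2621 and 2062 to 2236 with DMSO, 400 nM and 800 nM C16. Nearly all of each sum was VIM, whose group means were 4736, 4940.4 and 5242 in the siRNA table, and 3057, 2391 and 1999.5 in the C16 table. Of the 8, 4 had a median of at least 10 in each table and TWIST1 was at 0. ZEB1, a repressor of epithelial genes, rose with each PKR siRNA, with log2 fold changes of 0.60 and 0.80 (limma adjusted p = 4.86e-05 and 1.06e-07), and had values of -0.02 and 0.13 with the C16 doses. SNAI1, another such repressor, rose with 400 nM and 800 nM C16, by 1.15 and 0.99 on the log2 scale (limma adjusted p = 0.00723 and 0.0135), against the direction of VIM. SNAI1 rests on few reads, with means of 7.11 normalized counts with DMSO, 17.0 with 400 nM and 14.9 with 800 nM. Its DMSO mean was under the minimum of 10, so it was tested only through its C16 libraries. Among siRNA libraries SNAI1 had means of 15.0 under control siRNA, 10.9 under PKR siRNA 1 and 20.9 under PKR siRNA 2. CDH2, which encodes N-cadherin, rose with PKR siRNA 2 (0.61, limma adjusted p = 2.38e-05) and had values of -0.03 with PKR siRNA 1 and 0.23 and 0.21 with the C16 doses.

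The summed fibroblast markers were 84.2 to 117 normalized counts under control siRNA, 26.3 to 32.2 under PKR siRNA 1, then 130.3 to 139 under PKR siRNA 2, and 149 to 184, 119.9 to 181 and 80.2 to 117 with DMSO, 400 nM and 800 nM C16. Most of this was COL1A1, a collagen chain, which fell with PKR siRNA 1 (-1.86, limma adjusted p = 2.60e-18) and with 800 nM C16 (-1.08, limma adjusted p = 2.67e-09), and had values of 0.22 with PKR siRNA 2 and -0.20 with 400 nM C16. JUP fell in the same comparisons, and also with 400 nM C16. The part of these markers in the members' values was not tested.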

How the data were processed

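Libraries of poly(A) RNA, made with a directional kit, were sequenced from 18 PANC-1 samples. TopHat placed the reads on hg38, featureCounts summed them per gene and TCC scaled each table by TMM, so the values deposited by the authors are a normalized signal, here called normalized counts. The annotation version and the strand setting of the counting are not given in the sources used here. Such scaling assumes that most genes do not change, and genes that share exons can take each other's reads. The number of columns not assigned to a sample was 0.

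Within each table, log2 (normalized count + 1) was tested with limma (version 3.58.1, R 4.3.3; eBayes, trend fitted, after lmFit; two-sided tests; the 3 groups of 3 libraries in a common fit; Benjamini-Hochberg adjustment over the table). Genes below a mean of 10 normalized counts were left out, so 10593 siRNA and 9963 C16 genes were tested. The authors' thresholds, an adjusted p under 0.05 and a fold over 1.5, made a call. The members, roles and gene lists were chosen with earlier results of these data known, and the lists were written from general knowledge. All members are named, those called against a control with every library. The other epithelial genes are given as counts with the largest rise and fall. For edgeR 4.0.16 and DESeq2 1.42.0, reads were recovered as whole multiples of the value of 1 read. That value was nearly 1 in the first PKR siRNA 2 and 800 nM C16 libraries, where multiples and rounding look alike. All 18 replicate pairs differed by more than sampling noise (chi-square per degree of freedom 1.03 to 1.63), so none were merged. Other alternatives changed the pseudocount (0.5 or 5), dropped the filter or raised it to 30, rescaled by median of ratios, added a replicate block or left out each library in turn. The scripts were tested on simulated data.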

Additional observations from a re-analysis of the deposited data

How the results depend on the processing

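The members passed the thresholds 60 times over the 6 comparisons. Under the alternatives 0 of these reversed and 11 lost the call at least once, 10 of them when 1 library was left out and 6 under another test, filter or pseudocount. The losses were those of CDH1, DSC2, KRT18, KRT19, CDH3, KRT7, PPL, EPCAM and CLDN4 given in the report. DESeq2 lost 6, the fit with no filter 3, a pseudocount of 5 lost 2 and edgeR 1, while pseudocount 0.5 and median-of-ratios rescaling lost 0. A minimum mean of 30 left 45 of the 60 testable and lost 0. The median of the members with 800 nM C16 was -0.06 and became 0.01 under the rescaling, so no direction is given for it.

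With 1 library left out, the members called up and down ranged from 1 to 1 and 12 to 16 under PKR siRNA 1, from 4 to 6 and 6 to 8 under PKR siRNA 2, and from 11 to 12 and 2 to 3 between the PKR siRNAs. With 400 nM C16 they ranged from 3 to 3 and 2 to 3, with 800 nM from 3 to 4 and 5 to 7, and between the doses from 0 to 0 and 2 to 5, where 5 came without the second 800 nM library.

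No shared deviation of same-numbered libraries was detected, since 0 of 9 correlations of their deviations exceeded 0.1 in each table. Counting noise enters these deviations, so a weak pairing could go unseen. With the replicate block 15 members were down and 1 up under PKR siRNA 1, 7 and 4 under PKR siRNA 2, 3 and 3 with 400 nM and 6 and 3 with 800 nM C16, and 0 calls were lost. Depth limits the low members most, and those with a mean near 10 normalized counts in either table, such as CDH3, DSC2, KRT7 and MARVELD2, rest on few reads.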

Other observations

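CDH1 and CDH3 encode the cadherins E-cadherin and P-cadherin, and their ratio within a library was 1.11 ± 0.249 under control siRNA, 2.08 ± 0.375 under PKR siRNA 1, then 6.77 ± 1.65 under PKR siRNA 2 (SD, n = 3). With DMSO, 400 nM and 800 nM C16 it was 2.81 ± 0.879, 1.74 ± 0.651 and 3.02 ± 1.03, groups that overlapped. Pseudogenes listed for KRT8, KRT18 and KRT19 did not exceed 1.07 normalized counts in any library.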
